A study of Mus musculus with 8 samples.

Results

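The transcripts of 9 genes that carry the insulin signal in the liver were followed in RNA-seq read counts from mice lacking the splicing regulator Rbfox2 in hepatocytes. The 9 genes are Insr, Irs1, Irs2, Pik3r1, Akt1, Akt2, Foxo1, Grb14 and Ptpn1, chosen by name for their place in the pathway out of 46078 genes in the table. All 9 were among the 14654 genes with enough reads to be tested. The libraries came from the livers of 5 WT mice and 3 Rbfox2 KO mice, each a separate animal. All were on the C57BL6/J background, drank water with 30% (w/v) fructose for 22 weeks from an age of 8 weeks, and were fasted before the liver was taken. The Rbfox2 KO mice carried loxP-flanked Rbfox2 alleles and a Cre recombinase driven by the albumin promoter, so the deletion is aimed at hepatocytes while the other cells of the liver keep the gene. The study describes its controls as mice with the same loxP alleles and no Cre, and the labels call them wild-type. No mice on another diet, fed mice or insulin-treated mice were compared here.

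Insulin binds the insulin receptor, encoded by Insr, whose kinase phosphorylates the adaptor proteins IRS1 and IRS2. These recruit phosphoinositide 3-kinase through its regulatory subunit, the product of Pik3r1, and the lipid it makes activates the kinases AKT1 and AKT2. AKT2 is the main form in insulin-sensitive tissues, and in the liver AKT keeps the transcription factor FOXO1 out of the nucleus, where FOXO1 otherwise raises the genes of glucose production. GRB14 and PTP1B, the phosphatase encoded by Ptpn1, both restrain the receptor. In fasting, when insulin is low, FOXO1 is active and Irs2, one of its target genes, is raised.

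Total counts ran from 24829693 to 37823155 per library. Values below are CPM, read counts divided by a library size that was scaled by the trimmed mean of M-values (TMM), and 3 reads amount to 0.0839 to 0.118 CPM. Rbfox2 itself averaged 18.9 ± 3.39 CPM in WT (SD, n = 5) and 9.28 ± 2.84 CPM in Rbfox2 KO (SD, n = 3), 49.0% of the WT level, and no Rbfox2 KO liver reached the lowest WT liver. Its log2 fold change of -1.03 had an adjusted p of 0.328 by the quasi-likelihood test of edgeR and of 0.00186 by DESeq2. Counts are per gene, so reads from any exons left in place by the deletion are included in this level. The study reports that RBFOX2 protein could not be detected by western blot in livers with this deletion. RNA counts and protein are unlike measures, and the source of the remaining reads was not tested. Hepatocyte markers summed to 66276 to 80235 CPM over the 8 livers. RNA of neighbouring tissues was present in some of them. The 10 pancreatic acinar genes summed to 427 CPM in Rbfox2 KO 1 and 10.2 CPM in WT 1, and to at most 0.266 CPM elsewhere. The 8 skeletal muscle genes summed to 312 CPM in WT 5, 223 in WT 4 and 186 in Rbfox2 KO 1, and to at most 40.5 CPM elsewhere. The 6 adipocyte genes summed to 36.6 CPM in Rbfox2 KO 1 and to at most 10.2 CPM elsewhere. In bulk liver, a lower value from fewer cells of a type and one from less RNA per cell cannot be told apart.

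Of the 9 genes, the promoters of Irs1 and Irs2 shared a short stretch of sequence, shown here because these genes encode the parallel adaptors and differed in how steadily they were expressed. In the 250 bases before the RefSeq start (GRCm38.p6), both hold the E-box CACGTG next to TGTTTTG, the core of the insulin response element to which FOXO proteins bind. The 30 bases around the pair lie on the minus strand, at chr1:82291533-82291562 for Irs1 and chr8:11008952-11008981 for Irs2, each 5′ of the gene body that GENCODE M21 draws. Igfbp1, a textbook insulin-repressed FOXO1 target, is set beside them with its window at chr11:7197671-7197700 on the plus strand, where the same element reads in the reverse direction. Capitals mark the letters of the motifs.
Irs1: ggctccgtCACGTGTTTTGctcctctggag
Irs2: cgcagagtCACGTGtTGTTTTGctcttagt
Igfbp1: ctcacaagCAAAACAaacttattttgaaca
In Irs1 the motifs overlap by 2 bases, and in Irs2 1 base separates them. The Irs1 window runs from 123 to 94 bases before the RefSeq start and the Irs2 window from 52 to 23. Searched on both strands in 32851 mouse promoters of the same length, CACGTG was found in 6.02%, TGTTTTG in 5.56% and both in 97 (0.295%). The share of promoters with the motifs next to each other, as in Irs1 and Irs2, was not counted. RefSeq promoters were matched for 8 of the 9 genes and not for Insr, whose promoter was therefore not searched. Among the 8 matched genes, only Irs1 and Irs2 held either motif. The related forkhead motif TGTTTAC, present in 3.17% of promoters, was found in 1 of the 2 Akt1 promoters. These matches are letters in a window and not measured binding.

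None of the 9 genes passed the test for a change in Rbfox2 KO livers. At an adjusted p of 0.05 edgeR called 0 of the 9, beside 0 of 14654 genes in all (percent called, 0). At an unadjusted p under 0.05 there were again 0 of the 9, beside 694 of 14654 (4.74%), of which 353 were higher (2.41%) and 341 lower (2.33%). DESeq2 called 0 of the 9, beside 59 of 14330 genes with an adjusted p (0.412%). The adjusted p was 0.99997 by edgeR for each of the 9. The log2 fold changes, Rbfox2 KO against WT, ran from -0.26 to 0.15, with 5 above 0 and 4 below, and their median was 0.0095 beside 0.00095 for all tested genes. Confidence intervals from the fit show which sizes of change remain possible, and they differ widely among the genes. For Akt1, Akt2, Grb14 and Ptpn1 the 95% interval stayed between 0.867 and 1.23 times the WT level, whereas for Irs2 it ran from 0.364 to 1.91 times.

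**Figure D1:**
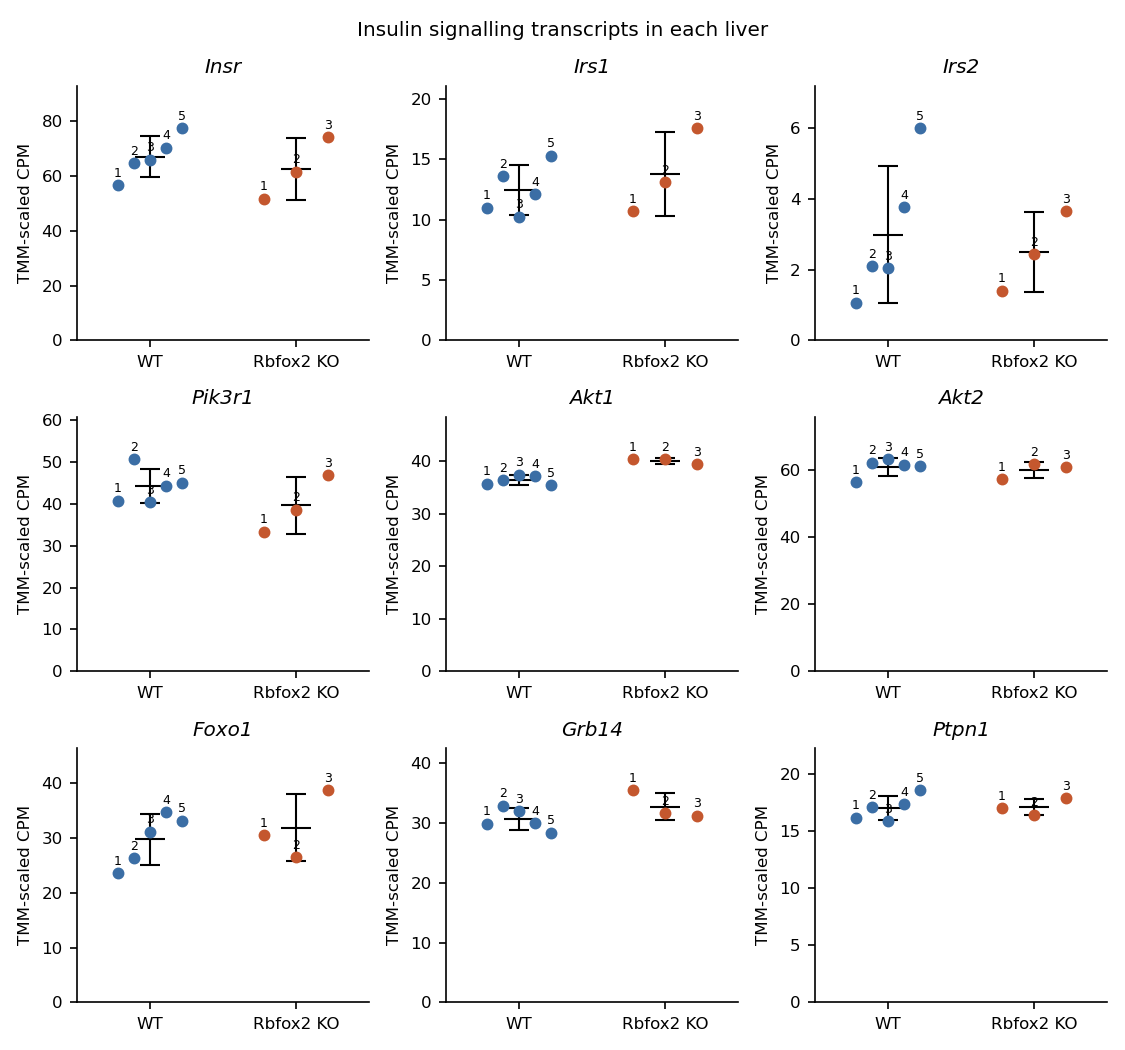
TMM-scaled CPM of each of the 9 genes (vertical axes, linear, starting at 0) in 5 WT (blue) and 3 Rbfox2 KO (orange) livers. Points are livers with their replicate number, horizontal lines are means and bars are SD. Akt1 is the gene whose groups do not overlap, with WT between 35.4 and 37.5 CPM and Rbfox2 KO between 39.4 and 40.3 CPM, and Irs2 shows the widest spread within a group.

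The receptor was considered first. Insr (ENSMUSG00000005534, chr8:3122061-3279617, minus strand, GRCm38) was counted at 56.7, 64.7, 65.8, 70.3 and 77.2 CPM in WT 1 to 5. Rbfox2 KO 1 to 3 gave 51.7, 61.5 and 74.1 CPM. The lowest of all 8 livers was thus a Rbfox2 KO liver and the highest a WT liver, and the ranges overlapped. The means were 66.9 ± 7.57 CPM in WT (SD, n = 5) and 62.4 ± 11.3 CPM in Rbfox2 KO (SD, n = 3), a log2 fold change of -0.10 ± 0.14 (SE), and the exact permutation test of the means gave p = 0.518.

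The receptor's substrates lay at low levels. Irs1 (ENSMUSG00000055980, chr1:82233101-82291416, minus strand) was counted at 11.01, 13.6, 10.3, 12.1 and 15.3 CPM in WT 1 to 5 and at 10.7, 13.1 and 17.6 CPM in Rbfox2 KO 1 to 3. The highest value belonged to Rbfox2 KO 3, and without that liver the log2 fold change turned from 0.15 ± 0.18 (SE) to -0.07. Of the exon length of Irs1, 30.9% lies opposite the exons of Gm9747, and whether counting used strand was not stated.

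Irs2 (ENSMUSG00000038894, chr8:10984681-11008458, minus strand) was the least abundant and the least steady of the 9 genes. WT 1 to 5 gave 1.07, 2.10, 2.04, 3.77 and 6.003 CPM, from 29 to 203 reads, so the highest WT liver held 5.60 times the level of the lowest. Rbfox2 KO 1 to 3 gave 1.41, 2.44 and 3.66 CPM, inside the WT range. The log2 fold change of -0.26 ± 0.53 (SE) had an exact permutation p of 0.786. It turned to 0.16 without WT 5 and to 0.02 without Rbfox2 KO 1.

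The kinase arm comprises Pik3r1, Akt1 and Akt2. Pik3r1 (ENSMUSG00000041417, chr13:101680563-101768217, minus strand) was counted at 40.7, 50.5, 40.4, 44.3 and 45.0 CPM in WT and at 33.3, 38.6 and 46.8 CPM in Rbfox2 KO. Rbfox2 KO 1 and 2 lay below every WT liver and Rbfox2 KO 3 inside their range, for a log2 fold change of -0.16 ± 0.12 (SE). It was -0.05 without Rbfox2 KO 1 and -0.07 when scaled by library totals. Without Rbfox2 KO 3 it was -0.30, and Pik3r1 was then the 1 gene of the 9 with an unadjusted p under 0.05 (adjusted p = 0.844, edgeR). In that fit 872 of all 14950 tested genes had an unadjusted p under 0.05, beside 694 of 14654 with all 8 livers.

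Akt1 (ENSMUSG00000001729, chr12:112653821-112674884, minus strand) was the only gene of the 9 whose groups did not overlap. Its values were 35.7, 36.4, 37.5, 37.2 and 35.4 CPM in WT 1 to 5 and 40.3, 40.3 and 39.4 CPM in Rbfox2 KO 1 to 3. The Rbfox2 KO mean was 109.9% of the WT mean, and the log2 fold change of 0.14 ± 0.07 (SE) had an unadjusted p of 0.0975 by edgeR. The exact permutation test of the mean gave p = 0.0179, the smallest it can give with these group sizes. Over all tested genes, 543 (3.71%) had groups that did not overlap, and in 277 (1.89%) every Rbfox2 KO liver lay above every WT liver. When CPM was computed from library totals in place of TMM, the Akt1 groups overlapped (exact permutation p = 0.107), and 1.97% of tested genes had groups that did not.

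Akt2 (ENSMUSG00000004056, chr7:27591552-27640826, plus strand) did not share this pattern. It was counted at 56.5, 62.3, 63.3, 61.7 and 61.4 CPM in WT 1 to 5 and at 57.4, 61.8 and 60.9 CPM in Rbfox2 KO 1 to 3. The Rbfox2 KO range lay inside the WT range, and the log2 fold change was -0.02 ± 0.08 (SE). Of the 100-base words of its longest transcript (4544 bases), 6.82% also occur in transcripts of other genes, so a part of its reads could be assigned elsewhere.

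The transcription factor at the end of the chain, Foxo1 (ENSMUSG00000044167, chr3:52268336-52353221, plus strand), was counted at 23.5, 26.3, 31.1, 34.6 and 33.1 CPM in WT 1 to 5. Rbfox2 KO 1 to 3 gave 30.5, 26.5 and 38.6 CPM. Rbfox2 KO 3 was the highest of all 8 livers, and without it the log2 fold change turned from 0.10 ± 0.16 (SE) to -0.06.

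The restraining genes were steady. Grb14 (ENSMUSG00000026888, chr2:64912476-65024987, minus strand) was counted at 29.9, 32.9, 32.0, 30.0 and 28.4 CPM in WT and at 35.5, 31.6 and 31.2 CPM in Rbfox2 KO, so that Rbfox2 KO 1 stood above the other 7 livers. Its log2 fold change of 0.10 ± 0.09 (SE) became 0.03 without Rbfox2 KO 1. Ptpn1 (ENSMUSG00000027540, chr2:167932057-167979385, plus strand) was counted at 16.2, 17.1, 15.9, 17.4 and 18.6 CPM in WT and at 17.1, 16.5 and 17.9 CPM in Rbfox2 KO. Its Rbfox2 KO values lay inside the WT range, with a log2 fold change of 0.01 ± 0.09 (SE).

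**Figure D2:**
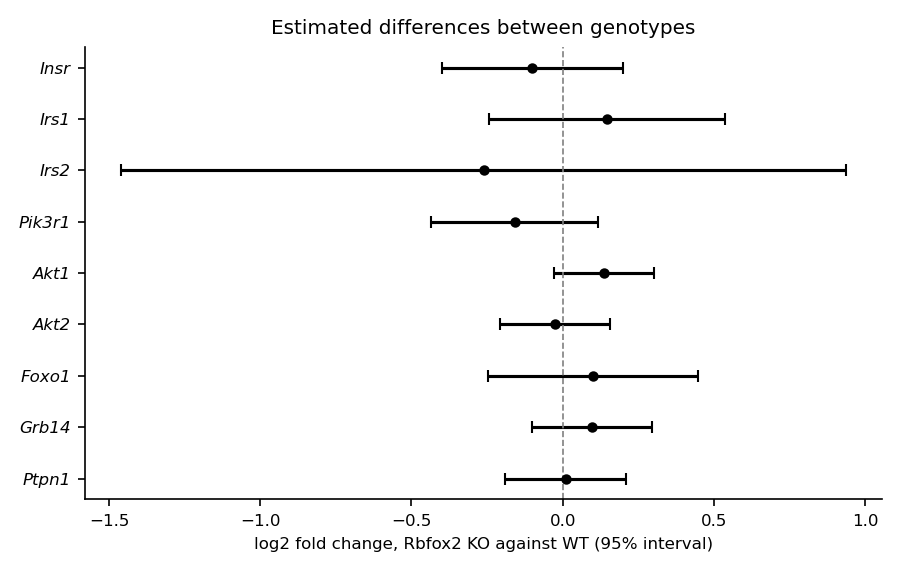
Log2 fold change of the 9 genes, Rbfox2 KO (n = 3) against WT (n = 5), from edgeR, with 95% confidence intervals as bars. Every interval crosses 0, the narrowest belong to Akt1, Akt2, Grb14 and Ptpn1, and that of Irs2 runs from -1.46 to 0.94.

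Levels of different genes were compared per kilobase of merged exons (RPKM). In WT livers Akt1 and Akt2 stood highest, at 8.89 ± 0.219 and 8.56 ± 0.373 RPKM (SD, n = 5). Their ranges overlapped, whereas Akt2 and the next gene, Insr at 4.87 ± 0.551 RPKM, did not overlap. Insr, Pik3r1 (4.38 RPKM), Grb14 (4.26 RPKM), Foxo1 (3.43 RPKM) and Ptpn1 (3.08 RPKM) followed, and each overlapped its neighbour in this order. Irs1 at 1.36 ± 0.223 RPKM lay below the range of Ptpn1, and Irs2 at 0.474 ± 0.307 RPKM lay below the range of Irs1. With the longest transcript as the length, the first places stayed with Akt1 and Akt2 and the last with Irs1 and Irs2, while Grb14 moved to the third place at 10.9 RPKM and Ptpn1 stood above Foxo1.

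Ratios inside a library need no scaling between libraries. Where its genes differ in exon length, a ratio can still carry the length trend of each library, described below. Grb14 has 7185 bases of merged exons and Insr 13746, and the trend was not removed from these ratios. Per kilobase, Akt2 stood at 0.909, 0.984, 0.971, 0.954 and 0.996 times Akt1 in WT 1 to 5 and at 0.817, 0.880 and 0.888 times Akt1 in Rbfox2 KO 1 to 3. Every Rbfox2 KO liver lay below every WT liver, and the mean log2 ratio was -0.06 ± 0.05 in WT and -0.22 ± 0.07 in Rbfox2 KO (SD). This ratio uses the same Akt1 reads whose groups did not overlap, while Akt2 itself had a log2 fold change of -0.02. The share of other gene pairs without overlap was not computed. The exact permutation test gave p = 0.0179, which became 0.0536 when adjusted for the 3 ratios that were tested. Of the IRS pair, Irs2 stood at 0.141 to 0.567 times Irs1 in WT and at 0.190 to 0.302 times Irs1 in Rbfox2 KO, with overlapping groups (exact permutation p = 0.643). Grb14 stood at 0.703 to 1.01 times Insr in WT and at 0.806 to 1.31 times Insr in Rbfox2 KO, also with overlap (exact permutation p = 0.357). All these ratios use merged exons, and another length multiplies a ratio by the same factor in every liver. With the longest transcript, Grb14 averaged 10.9 RPKM and Insr 7.15 RPKM in WT, without overlap. Akt1 was then above Akt2 in 2 of the 5 WT livers.

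The 9 genes also differed among themselves in how far individual mice lay apart. The coefficient of variation (CV) over the 5 WT livers was 64.8% for Irs2, larger than in 97.2% of all tested genes, and genes of a similar level had a median of 17.9%. Counting error alone gives the Irs2 values a CV of 7.02% to 18.6%. Irs1 followed with 16.3%, Foxo1 with 15.7% and Insr with 11.3%. Pik3r1 had 9.30%, Ptpn1 6.22%, Grb14 5.91% and Akt2 4.36%. The CV of Akt1, 2.46%, was lower than in all but 0.355% of tested genes. It was also below the 2.89% to 3.22% that counting error alone gives its WT values, so the distance between mice was not measurable for Akt1 at this depth.

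**Figure D3:**
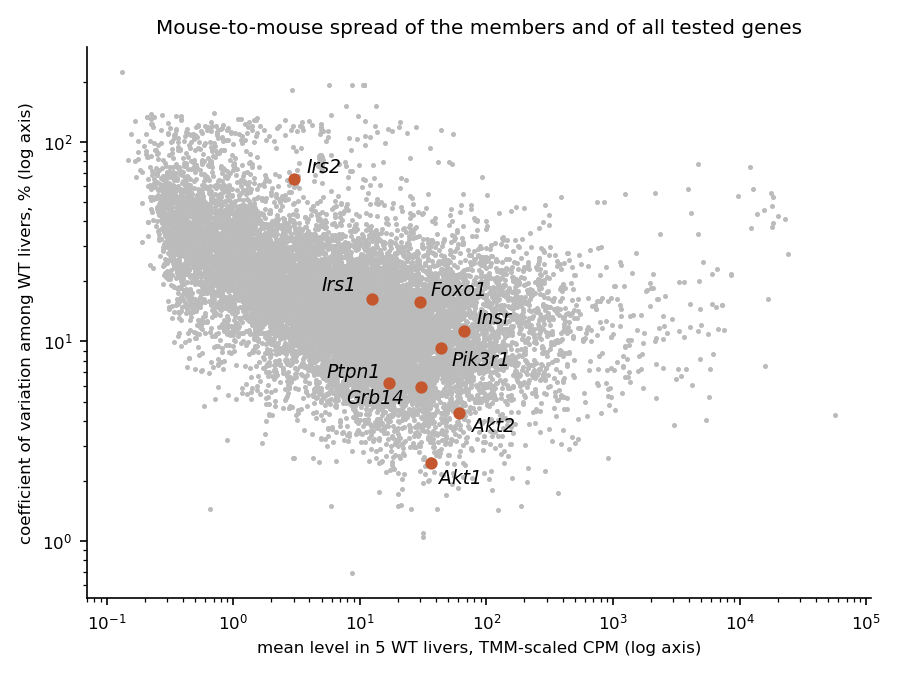
Mean TMM-scaled CPM over 5 WT livers (horizontal, log axis) and coefficient of variation among them in % (vertical, log axis) of all 14654 tested genes (grey) and the 9 genes (orange). Irs2 lies at 64.8%, near the top of the cloud, and Akt1 at 2.46%, near its lower edge.

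A part of this spread moved with a property of the libraries. In genes with over 12 kb of merged exons, the median log2 deviation from the mean of the 8 livers was -0.23 in WT 1, -0.14 in Rbfox2 KO 1, 0.21 in WT 5 and 0.11 in Rbfox2 KO 3. In genes of up to 1 kb it was 0.25 in WT 1, -0.30 in WT 5 and -0.26 in Rbfox2 KO 3. Insr, with 13746 bases of exons, was low in WT 1 and Rbfox2 KO 1 and high in WT 5 and Rbfox2 KO 3, the same libraries at each end as for genes over 12 kb. With the length trend of each library removed, a step chosen after the data were seen, Insr ran from 62.7 to 67.8 CPM in WT, and its CV was 3.33% in place of 11.3%. Irs2 still ran from 1.13 to 5.81 CPM in WT, with a CV of 62.6%. The CV of Irs1 was then 11.9%, that of Foxo1 11.9% and that of Akt1 1.54%, while that of Grb14 was 7.74% in place of 5.91%. The median CV of genes at a similar level to Insr was 8.68% in place of 10.4%. Akt1 stayed without overlap, as did 4.37% of all tested genes.

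**Figure D4:**
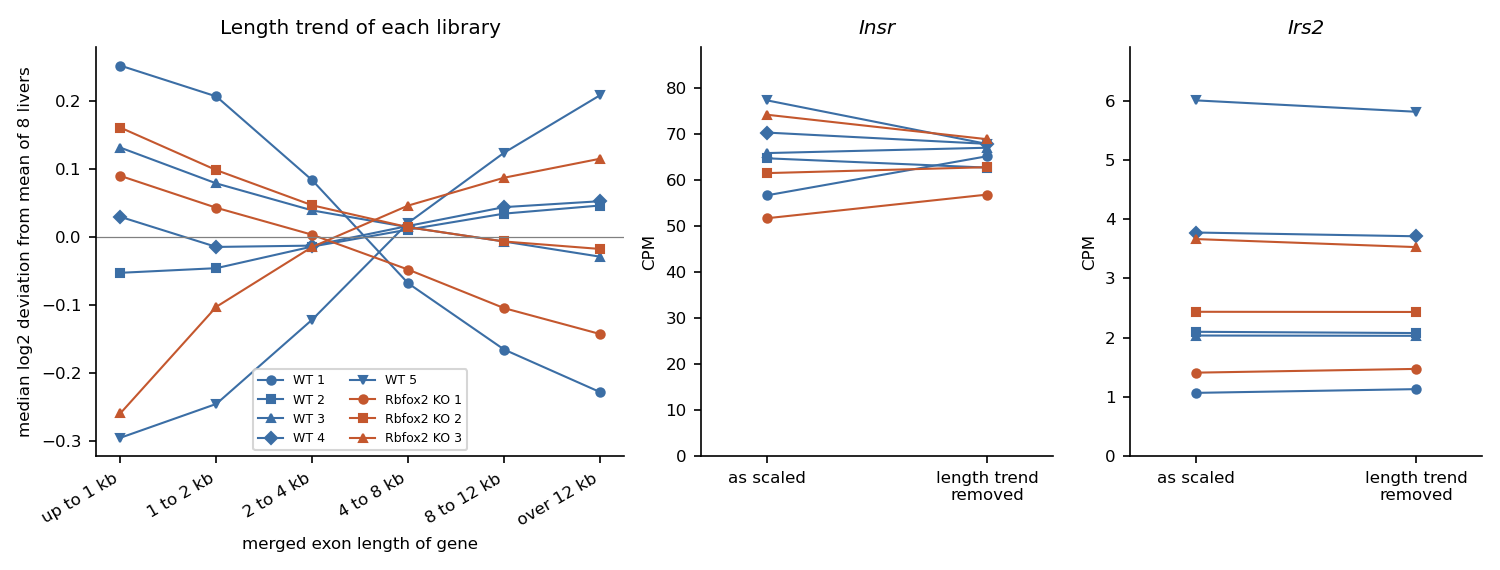
Left, median log2 deviation of each library from the mean of 8 livers by merged exon length class, with WT in blue and Rbfox2 KO in orange. Middle and right, CPM of Insr and Irs2 in each liver (linear axes starting at 0) as scaled and with the length trend removed, where the WT livers draw together for Insr (62.7 to 67.8 CPM) and not for Irs2 (1.13 to 5.81 CPM).

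The livers high in Irs2 were compared with genes known to follow the same fasting signal. Igfbp1 and Pdk4, genes that insulin lowers and FOXO1 raises, were picked for naming after their values were seen. Igfbp1 was at 15.6, 14.2 and 16.3 CPM in WT 1 to 3 and at 36.9 and 42.0 CPM in WT 4 and 5, and Rbfox2 KO 1 to 3 gave 53.7, 17.6 and 32.5 CPM. Pdk4 was at 11.4, 8.69 and 12.6 CPM in WT 1 to 3 and at 36.7 and 56.3 CPM in WT 4 and 5, and Rbfox2 KO 1 to 3 gave 25.6, 33.5 and 28.2 CPM. In WT, the livers highest in Irs2, WT 4 and WT 5, were also the highest in both of these genes. Pck1 and Fbxo32, from the same list of 14 genes that insulin lowers, were also highest in WT 4 and WT 5. Pck1 was at 2142 and 2223 CPM there and at most at 1708 CPM in WT 1 to 3. Fbxo32 was at 4.09 and 7.57 CPM there and at most at 1.88 CPM in WT 1 to 3. Other genes of the list had another order. WT 1 was above WT 4 in G6pc, encoding glucose-6-phosphatase (192.9 and 180.1 CPM), WT 3 was above WT 4 in Klf15 (135.6 and 133.0 CPM), WT 2 was above WT 4 in Ppargc1a (6.95 and 6.50 CPM), and the 14 genes summed to 4221 CPM in WT 1 and 3984 CPM in WT 5. In Rbfox2 KO the order differed, since Rbfox2 KO 1 had the highest Igfbp1 and the lowest Irs2. WT 4 and WT 5 were also the livers with the most skeletal muscle RNA, while Rbfox2 KO 1, with 186 CPM of it, held 1.41 CPM of Irs2. The part of muscle RNA in these values was not tested.

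The genes whose log2 CPM followed each member most closely over the 8 livers were listed as a description, with libraries and their length trend shared by all points. For Insr these were Apob (Pearson r = 0.988), Mapk14 (r = 0.983) and Sik2 (r = 0.982), and 342 genes had r over 0.9. For Irs2 they were Lrp6 (r = 0.994), Klf10 (r = 0.984) and Klhl24 (r = 0.982), with 333 genes over 0.9. Irs1 was followed by Baz2a (r = 0.970), Cblb (r = 0.969) and Camta2 (r = 0.962), and Foxo1 by Tmem167b (r = 0.982), Tmc7 (r = 0.970) and Zfp420 (r = 0.956), with 53 and 47 genes over 0.9.

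Beyond the 9 genes, 51 others of the pathway were examined, and 49 of them could be tested (Insrr and Foxo6 could not). None passed an adjusted p of 0.05 by edgeR (0% of all tested genes) or DESeq2 (0.412% of all genes), and 0 had an unadjusted p under 0.05 (4.74% of all tested genes). The log2 fold change was above 0 for 22 and below 0 for 27, with a median of -0.03. By role, it was above 0 for 2 of 3 receptor and clearance genes, 2 of 6 adaptors, 2 of 7 genes of the PI3K and kinase group, 5 of 11 genes of the mTOR complexes and their regulators, 4 of 6 downstream genes and 7 of 16 inhibitors. The smallest p belonged to Sos2, which encodes a Ras exchange factor and had a log2 fold change of 0.22 ± 0.12 (SE). Mapkap1, a subunit of the mTOR complex that phosphorylates AKT, was at 20.1 to 22.4 CPM in WT and 23.5 to 23.8 CPM in Rbfox2 KO, the 1 gene of the 49 without overlap, a share near the 1.89% of all tested genes with every Rbfox2 KO liver above every WT liver. Among inhibitors, the log2 fold change was 0.24 ± 0.14 (SE) for Enpp1, 0.17 ± 0.10 for the stress kinase Mapk8 and -0.17 ± 0.11 for the receptor phosphatase Ptprf. Without Rbfox2 KO 3 it was 0.15 for Sos2 and 0.08 for both Enpp1 and Mapk8. Ide, the insulin-degrading enzyme, had -0.33 ± 0.22, the mTOR scaffold Rptor -0.21 ± 0.15 and the adaptor Sh2b2 0.32 ± 0.24.

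Genes that answer to insulin in liver were examined as a readout of the pathway. Of 24, all tested, 0 passed the adjusted p. Those that insulin lowers had log2 fold changes above 0 in 10 of 14, with a median of 0.14. Those that it raises were below 0 in 7 of 10, with a median of -0.15. Over all 14654 tested genes, 7362 were above 0 and 7292 below. Genes of a list were read in the same livers and are not independent of each other. Srebf1, encoding the regulator of fatty acid synthesis SREBP1, was the 1 gene of the 24 with an unadjusted p under 0.05 (edgeR, 0.00668, adjusted p = 0.809). Over all tested genes, 694 of 14654 passed that threshold (4.74%), of which 341 were lower in Rbfox2 KO (2.33%). Srebf1 was at 49.5, 36.3, 36.2, 39.0 and 31.3 CPM in WT 1 to 5 and at 26.9, 30.8 and 24.1 CPM in Rbfox2 KO 1 to 3, so every Rbfox2 KO liver lay below every WT liver, as in 266 of all tested genes (1.82%). The exact permutation test of its means gave p = 0.0536.

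Other lipogenic genes did not pass either test. Thrsp, which promotes fatty acid synthesis, had a log2 fold change of -0.78 ± 0.35 (SE), the synthase Fasn -0.46 ± 0.22 and the carboxylase Acaca -0.16 ± 0.12. Rbfox2 KO 1, the liver with the most adipocyte RNA, had the highest Rbfox2 KO values of Fasn (37.6 CPM beside 24.7 and 20.9) and Thrsp (14.6 CPM beside 7.16 and 5.82). Without it the log2 fold change was -0.75 for Fasn and -1.30 for Thrsp, and the part of adipocyte RNA was not tested. Acly, which supplies cytosolic acetyl-CoA, had 0.21 ± 0.10. Of genes that serve glucose production, Ppargc1a, encoding a coactivator, had 0.37 ± 0.24, Klf15, encoding a transcription factor, 0.21 ± 0.13 and Pck1, encoding the carboxykinase, 0.20 ± 0.17. Rbfox2 KO 3 decided the value of Klf15, at 191 CPM beside 136.2 and 128.5 CPM in Rbfox2 KO 1 and 2, and without it the log2 fold change was 0.01. Without the same liver it was 0.15 for Ppargc1a and 0.08 for Pck1.

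**Figure D5:**
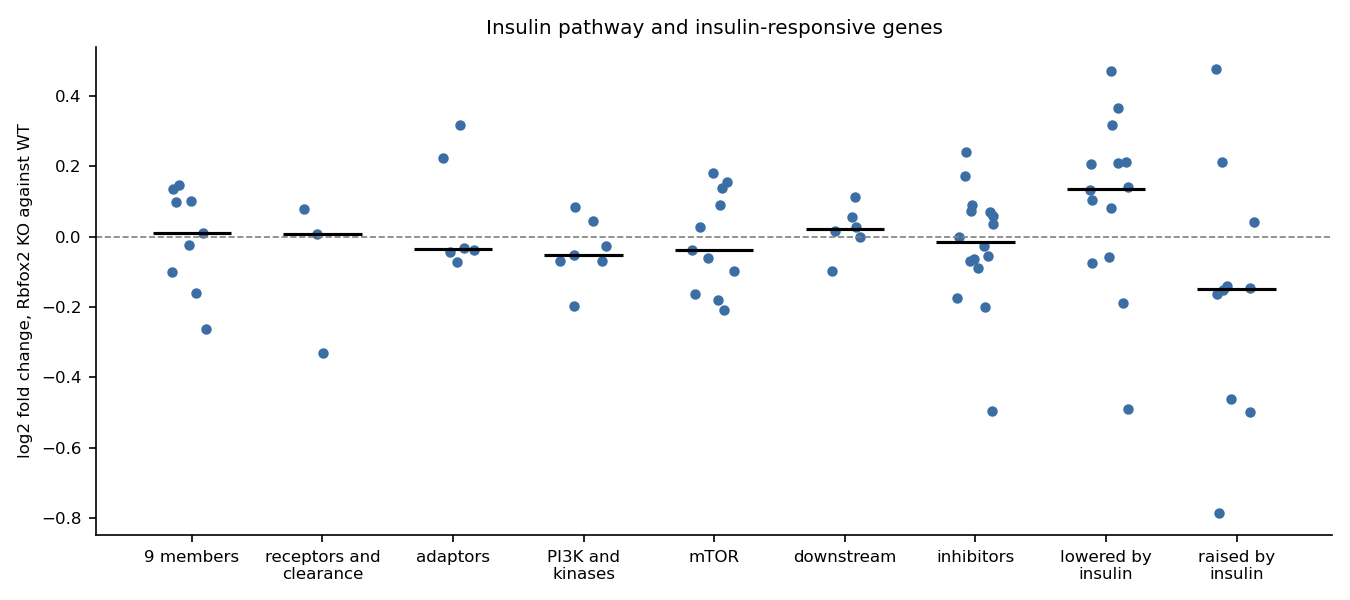
Log2 fold change, Rbfox2 KO (n = 3) against WT (n = 5), of the 9 genes, of the other pathway genes by role and of insulin-responsive genes. Each point is a gene and each horizontal line the median of its group, which is 0.14 for genes lowered by insulin and -0.15 for genes raised by it, and no gene passed an adjusted p of 0.05.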

How the data were processed

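The authors made strand-specific, poly(A)-selected, paired-end libraries, aligned the 100-base reads with TopHat2 2.0.11 to GRCm38, and deposited raw counts per gene from featureCounts. The strand setting and the handling of reads with several alignments in counting are not given in the sources used here. Groups came from the labels, and 0 columns were left without a sample. Symbols, exon lengths and coordinates came from GENCODE M21.

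Genes were filtered with filterByExpr and tested with the robust quasi-likelihood test of edgeR 4.0.16 (R 4.3.3) after TMM scaling, genotype being the only term, with Benjamini-Hochberg adjustment over all 14654 tested genes at 0.05. Means and ratios were compared by two-sided exact permutation tests. The scripts were tested on simulated data. Alternatives were DESeq2 1.42.0, limma-voom 3.58.1, other scalings and filters, a replicate block, and leaving out each library. Removal of each library's exon length trend (loess over genes of at least 8 CPM) and the longest-transcript lengths were added after seeing the data. The 9 genes and all lists were chosen with earlier results of these data known. Named genes were the 9, Rbfox2, the 8 genes with the smallest p of each other list, and the 3 nearest by correlation of log2 CPM (prior count 2). Genes of similar level lay within 0.5 log2 units of mean CPM. Replicates are separate mice, and no pair within a group agreed within sampling noise.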

Additional observations from a re-analysis of the deposited data

Results flagged for a closer look

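The lowest WT liver stood apart in 2 of the 29 genes examined for a single WT liver far from the other 4. Akt2 in WT 1 was at 56.5 CPM, the nearest other WT liver was at 61.4 and the highest at 63.3, a gap of 0.714 of the whole range. Klf15 in WT 1 was at 118.5 CPM beside 132.6 in the nearest and 135.9 in the highest, a gap of 0.808 of the range. The limit for 5 samples is 0.71, and chance alone would pass it in about 1.45 of 29 genes. With the length trend of each library removed, Akt2 in WT 1 was at 60.7 CPM, inside the range of 58.4 to 63.3 CPM of the other WT livers.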

How the results depend on the processing

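No member and no gene of the other insulin lists was called under any of the 12 alternatives or without any library. Over all genes, 0 calls became 59 with DESeq2 (722 at an unadjusted p under 0.05, beside 694), 6 of 24449 with no filter on low counts and 1 at an adjusted p of 0.1. DESeq2 also called Rbfox2, with a log2 fold change of -1.03. Scaling by library totals moved the median log2 fold change of all genes to 0.12, that of Akt2 to 0.0855, the difference of its means to 3.61 CPM and that of Akt1 to 6.85 CPM (exact permutation p = 0.107). With sample quality weights the log2 fold change was -0.0366 for Foxo1 and -0.0089 for Ptpn1. The cause was not tested.

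The labels give 3 numbers to both groups, but same-numbered livers are different mice. Their deviations from the group means correlated by 0.0484 to 0.170, and those of differently numbered livers by -0.41 to 0.37. Whether same-numbered livers share more than a number was not tested. With the replicate block 0 genes were called and 739 had an unadjusted p under 0.05. Numbers 4 and 5 occur only in WT, so WT 4 and WT 5 did not enter the genotype difference of this fit. They were the highest WT livers in Irs2 and in Ide. With them set aside in this way, the log2 fold change of Irs2 became 0.50 and that of Ide 0.0031. The log2 difference in the Irs2 to Irs1 ratio became 0.26, and the block changed no call.

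Leaving out each library in turn, the log2 fold change ran from -0.24 to 0.0129 for Insr, -0.0674 to 0.29 for Irs1, -0.65 to 0.16 for Irs2, -0.30 to -0.05 for Pik3r1, 0.03 to 0.13 for Grb14, -0.0561 to 0.00182 for Akt2, -0.0631 to 0.216 for Foxo1 and -0.0244 to 0.0434 for Ptpn1. Insr and Akt2 turned without Rbfox2 KO 1, Irs1 and Foxo1 without Rbfox2 KO 3, Irs2 without WT 5 or Rbfox2 KO 1, and Ptpn1 without WT 1, WT 3 or Rbfox2 KO 3. The differences of means ran in CPM from -10.4 to 0.867 for Insr, -0.544 to 2.87 for Irs1, -1.07 to 0.259 for Irs2, -2.16 to 0.326 for Akt2, -1.26 to 4.80 for Foxo1 and -0.273 to 0.5005 for Ptpn1. The log2 difference in the Akt2 to Akt1 ratio ran from -0.18 to -0.12, and its exact permutation p was 0.0571 without WT 2, 3, 4 or 5. The difference of means for Akt1 itself stayed between 3.35 and 3.91 CPM (exact permutation p from 0.0286 to 0.0476). Each of these p-values is the smallest that the exact permutation test can give with the reduced groups. At 29 to 203 reads, counting error adds to the spread of Irs2 more than to that of any other of the 9 genes.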

Other observations

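Genes that PPARα raises in the fasted liver were measured as a further sign of nutritional state. Log2 fold changes were above 0 in 7 of 8 of them, with a median of 0.30, beside 7362 of all 14654 tested genes. The 8 genes were read in the same livers and are not independent of each other. None was called by edgeR (0 of 8, as of all tested genes), 2 were higher at an unadjusted p under 0.05 (2.41% of all tested genes) and DESeq2 called 1 (0.412% of all genes). These 2 were named after their values were seen. Ehhadh, a peroxisomal fatty acid oxidation enzyme, averaged 676 ± 67.9 CPM in WT and 1211 ± 414 CPM in Rbfox2 KO (SD), and Fgf21, a fasting hormone, 11.2 ± 3.31 and 18.6 ± 5.20 CPM. The summed level of the 8 genes was 8966 to 10671 CPM in WT, 13501 in Rbfox2 KO 2, 14059 in Rbfox2 KO 3 and 6469 in Rbfox2 KO 1. Pancreatic acinar RNA was present in Rbfox2 KO 1 and, at a lower level, in WT 1, the WT liver with the highest sum.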
